A study of Mus musculus with 8 samples.

Results

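The integrated stress response was followed through 10 genes, *Atf4*, *Atf3*, *Atf5*, *Ddit3*, *Asns*, *Trib3*, *Chac1*, *Psat1*, *Phgdh* and *Gdf15*, in brown adipose tissue (BAT). They were chosen by name as genes of the ATF4 pathway, and the rows were found by matching Ensembl identifiers to symbols of the GENCODE mouse annotation. All 10 were found among the 44674 gene rows of the table, and all 10 passed the filter on low counts. The question behind the set was whether lower respiratory chain transcripts in BAT went together with transcripts of mitochondrial stress.

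BAT of 4 control mice and 4 Ox1RΔSERT mice was studied by mRNA sequencing. The controls were Ox1R fl/fl, Sert-Cre wt/wt littermates, and the Ox1RΔSERT mice were Ox1R fl/fl, Sert-Cre tg/wt. Both groups therefore carried the floxed orexin receptor allele, and only the Ox1RΔSERT group carried the Cre transgene, which is driven by the promoter of the serotonin transporter and targets serotonergic neurons. The study also saw activity of this Cre line in the cingulate cortex and in thalamic nuclei, and Cre activity in BAT was not analysed here. All mice were male, ate a high-fat diet (HFD) from 4 to 18 weeks of age and were killed between 14 and 16 h, when a hyperinsulinemic-euglycemic clamp had ended, in which insulin is infused while blood glucose is held constant. Each library came from 1 mouse. The mice are named by group and by the number in their labels.

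In the integrated stress response, kinases that sense amino acid shortage, unfolded proteins of the endoplasmic reticulum (ER), viral RNA or a lack of heme phosphorylate the translation factor eIF2. General translation then slows, while the mRNA of the transcription factor ATF4 is translated more efficiently, and ATF4 switches on genes of amino acid synthesis and uptake, redox balance and cell death. Mitochondrial damage can feed into the same pathway, and the muscle and fat of mice with respiratory chain defects are known for secreting GDF15 and FGF21. Because ATF4 is controlled to a large part through translation, its own transcript level does not measure the activity of the pathway.

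ATF4 binds as a dimer with C/EBP proteins to a composite element that was searched for here as TGATGNAA on either strand, from 250 bases before to 50 bases after the transcription starts of RefSeq genes (GRCm38.p6). Of the 10 stress response genes, 4 held this motif (40.0%), compared with 1304 of all 32851 promoters (3.97%) and with 1219 of 27025 genes over any of their promoters (4.51%). The 4 matches are printed to show the letters behind this count. Each is a window of 30 bases on the strand of the gene, 5′ to 3′, with the 8 matching bases in capitals.
Asns, chr6:7693214-7693243, minus strand, in the UTR of Asns: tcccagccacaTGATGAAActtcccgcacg
Atf3, chr1:191183425-191183454, minus strand, in an intron of Atf3: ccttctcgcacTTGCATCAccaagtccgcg
Chac1, chr2:119351038-119351067, plus strand, between annotated genes: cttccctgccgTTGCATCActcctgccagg
Trib3, chr2:152344028-152344057, minus strand, between annotated genes: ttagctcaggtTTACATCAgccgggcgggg

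Counted from the RefSeq starts, the match began 23 bases before *Asns*, 110 before *Atf3* and 193 before *Chac1*, and 14 bases after the start of *Trib3*. The features printed with the windows come from GENCODE, whose starts differ (7693254 for *Asns* and 152344032 for *Trib3*). By GENCODE the *Asns* match lies inside the gene and the *Trib3* match before its start. *Asns* held it in the sense orientation and the other 3 in the antisense orientation. The windows of *Atf4*, *Atf5*, *Ddit3*, *Psat1*, *Phgdh* and *Gdf15* did not contain these letters, which says nothing about binding elsewhere. A motif longer by 1 base, TGATGNAAT, was found in 0 of the 10 members and in 0.965% of all promoters. In other lists, the shorter motif occurred in 8 of 24 other ATF4 targets (33.3%) and in 5 of 12 cytosolic tRNA synthetases (41.7%) that had a promoter in the table. It occurred in 0 of 63 nuclear respiratory chain genes and in 0 of 12 mitochondrial chaperones and proteases. These shares describe the sequence only, since the members were known as ATF4 targets beforehand. A further 3 genes with the motif are shown because their transcripts come up again below, an amino acid exchanger with the motif on both strands, a proline enzyme and an aminotransferase.
Slc7a11, first match, chr3:50443661-50443690, minus strand, between annotated genes: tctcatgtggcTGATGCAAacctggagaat
Slc7a11, second match, chr3:50443642-50443671, minus strand, between annotated genes: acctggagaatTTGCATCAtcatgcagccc
Pycr1, chr11:120643833-120643862, minus strand, between annotated genes: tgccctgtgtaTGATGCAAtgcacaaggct
Got1, chr19:43524689-43524718, minus strand, between annotated genes: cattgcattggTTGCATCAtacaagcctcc

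**Figure D1:**
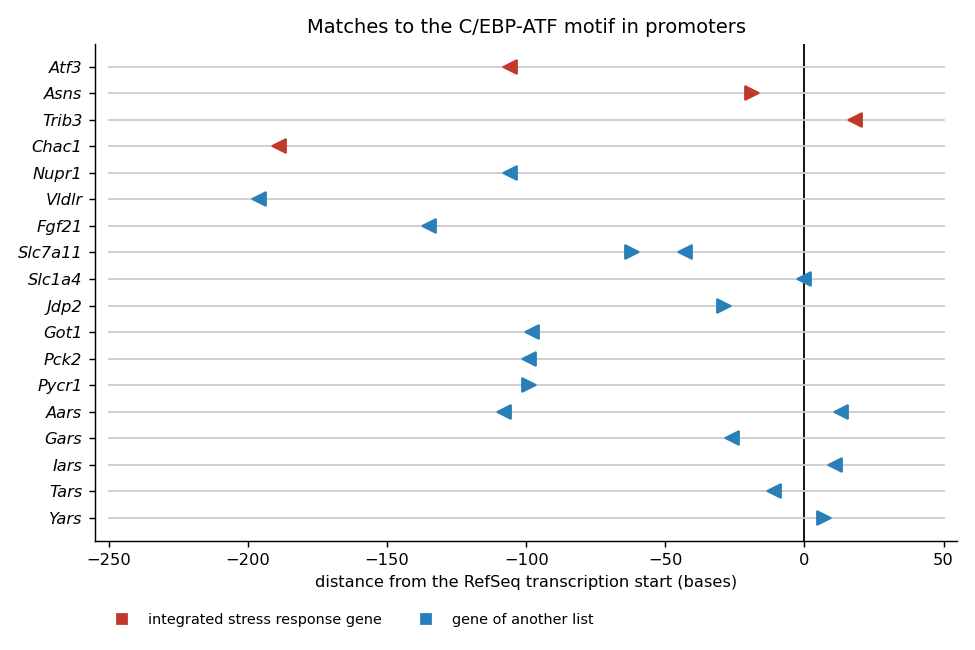
Positions of TGATGNAA matches relative to the RefSeq transcription start in the stress response genes (red) and in genes of the lists of other ATF4 targets, serine, glycine and one-carbon enzymes and tRNA synthetases (blue). Each row is a gene, the horizontal axis is the distance from the start in bases, and the direction of a triangle gives the orientation of the match. The 4 red triangles lie between the match of *Chac1*, which begins 193 bases before the start, and that of *Trib3*, which begins 14 bases after it.

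The libraries held between 35852708 and 50063339 estimated counts, and 14489 genes passed the filter. Mitochondrially encoded genes made up 33.6% to 46.8% of a library. On the first principal component, which took 53.6% of the variance, the Ox1RΔSERT mice 11601 (59.3) and 11708 (77) stood apart from the other 6 mice (-44.3 to 7.13). Macrophage markers moved with these 2 mice: the summed normalized value of 10 markers was 139 to 300 in controls, 218 and 237 in the Ox1RΔSERT mice 11243 and 11613, and 1000 and 778 in mice 11601 and 11708. Markers of skeletal muscle were high in control 11253 (1730) and in Ox1RΔSERT mouse 11708 (2360), and between 2.59 and 191 elsewhere. Markers of hepatocytes were high in mouse 11708 (1150) and 27.2 to 193 elsewhere. In control 11253, *Cyp2e1* alone gave 149 of this sum. All hepatocyte markers except *Cyp2e1* were above every control in mouse 11601 too, *Alb* at 36.1 against at most 25.8. Markers of brown adipocytes were strong in all mice, with sums of 13300 to 14600 in controls and of 12800, 9520, 12400 and 8890 in Ox1RΔSERT mice 11243, 11601, 11613 and 11708. The deleted gene *Hcrtr1* was at or below 0.159 in every mouse and did not pass the filter, so BAT cannot serve to check the genotypes. In bulk tissue, fewer cells of a type and less RNA per cell cannot be told apart.

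None of the 10 stress response genes was called between the groups. edgeR's quasi-likelihood test with Benjamini-Hochberg adjustment called 0 of the 14489 genes tested (0.0%), the lowest adjusted p being 0.316. At an unadjusted edgeR p under 0.05, 1482 genes (10.2%) were higher and 719 (4.96%) lower in Ox1RΔSERT mice. Among the 10 members, 1 was higher (*Ddit3*) and 1 lower (*Asns*) by that measure. Leaving out single mice changed these counts to 2 higher (without 11243, 11613 or 11563), to 0 lower (without 11708, 11253 or 11560) or to 2 lower (without 10684), and those over all genes to between 718 and 2070 higher and between 300 and 1261 lower. DESeq2 called 249 of the 14343 of these genes for which it gave an adjusted p (1.74%), and 0 of the 10 members. The log2 fold changes were above 0 in 5 members and below 0 in the other 5, with a median of -0.02 compared with 0.0 over all genes tested. Without single mice this median lay between -0.16 (without control 11253) and 0.14 (without control 11563). Values below are CPM after TMM scaling, called normalized values, and fold changes are Ox1RΔSERT over control on the log2 scale, with a standard error (SE) from edgeR.

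**Figure D2:**
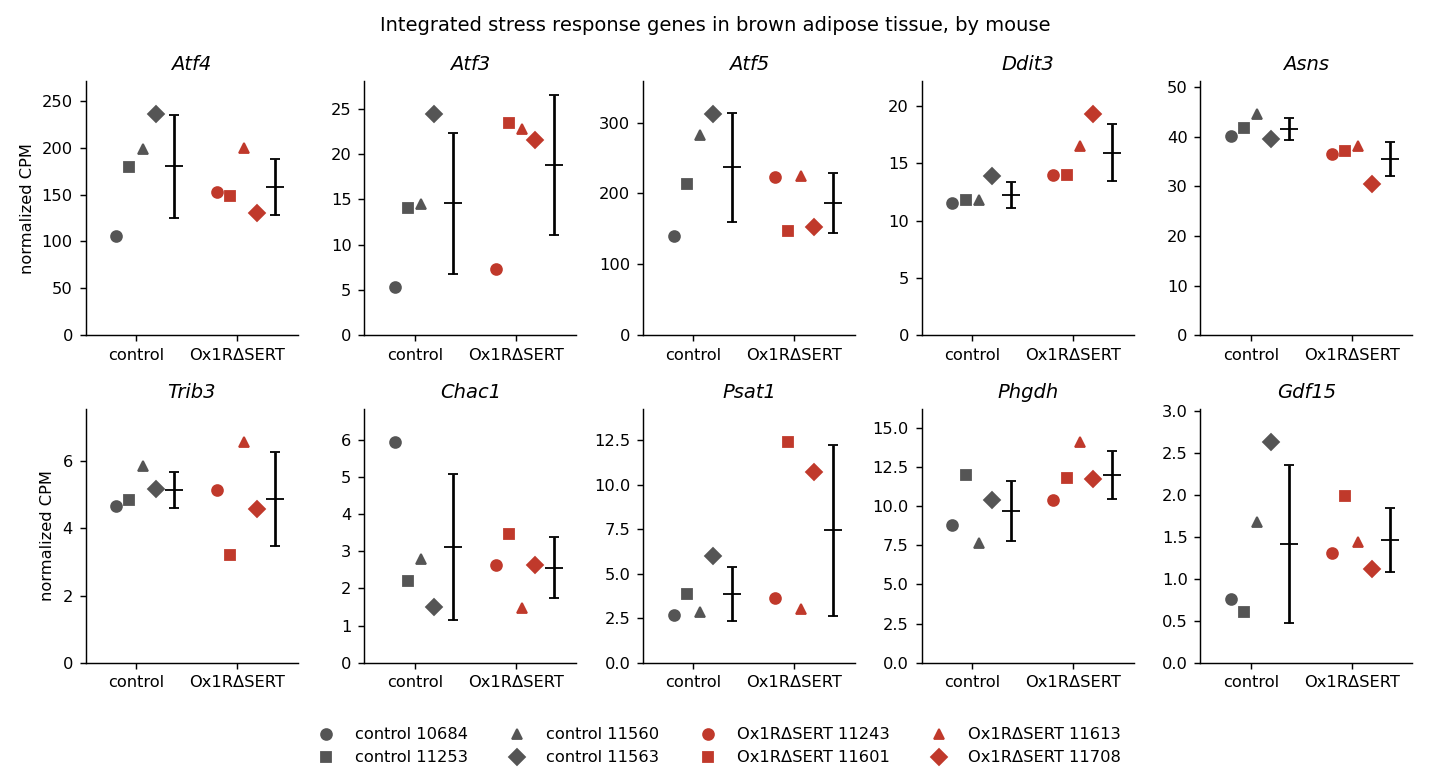
Normalized values (CPM after TMM scaling) of the 10 stress response genes in every mouse, with controls in grey, Ox1RΔSERT mice in red and 1 symbol per mouse. Black bars are the mean ± SD of 4 mice, and every vertical axis starts at 0. The groups are separate in *Ddit3* and *Asns* and overlap in the other 8 genes.

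The transcription factors *Atf5* and *Atf4* were the most abundant members. On the TPM scale, which corrects for transcript length, *Atf5* had a mean level of 127 over the 8 mice and *Atf4* of 93.4, followed at a distance by *Asns* (17.4), *Ddit3* (14.4), *Atf3* (7.69), *Phgdh* (5.09), *Psat1* (2.46), *Trib3* (2.45), *Chac1* (1.76) and *Gdf15* (1.54). The ranges of neighbours in this order overlapped over the 8 mice everywhere except between *Atf4* (53.8 to 121) and *Asns* (14.4 to 22.0). The amino acid stress enzyme *Asns* and the stress factor *Ddit3* thus had levels well above the secreted factor *Gdf15*, whose range was 0.537 to 2.70 TPM.

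*Atf4* encodes the central transcription factor of the response. The controls 10684, 11253, 11560 and 11563 had normalized values of 106, 180, 199 and 236. The Ox1RΔSERT mice had 153 (11243), 149 (11601), 200 (11613) and 130 (11708). The Ox1RΔSERT mice all lay within the range of the controls. The means were 180 ± 54.8 and 158 ± 29.7 (SD, n = 4 each), and the log2 fold change of -0.19 (SE 0.24) had a 95% interval of -0.73 to 0.35. edgeR's quasi-likelihood test with Benjamini-Hochberg adjustment gave an adjusted p of 0.707. The direction turned with library sizes alone (0.03) and on the TPM scale (0.18 with a pseudocount of 1), where the medians of all genes were themselves at 0.22 and 0.23.

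*Atf5* encodes a related factor that is known for inducing mitochondrial chaperones. In the same order of mice, its normalized values were 140, 214, 282 and 312 in controls and 223, 147, 224 and 153 in Ox1RΔSERT mice. Again all 4 Ox1RΔSERT mice fell within the control range, with mice 11601 and 11708 close to its lower end. The log2 fold change was -0.34 (SE 0.26), with an adjusted p of 0.521 by edgeR's quasi-likelihood test with Benjamini-Hochberg adjustment. Without mice 11601 and 11708 it was -0.08. On the TPM scale it was 0.01 with a pseudocount of 1 or 0.1, where the medians of all genes were 0.23 and 0.32. Relative to those medians *Atf5* was at -0.22 and -0.31. *Atf5* shares 82 exon bases with *Il4i1* on the opposite strand, a gene that had at most 36 estimated counts in a mouse. It also shares 82 exon bases with an entry of the protein-coding *Nup62* on that strand, which has no row among the counts.

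*Atf3*, an early stress-induced factor, was among the most variable members. It stood at 5.31, 14.0, 14.5 and 24.4 in controls, and at 7.25, 23.4, 22.8 and 21.6 in Ox1RΔSERT mice. Thus 3 Ox1RΔSERT mice were close to the highest control and 1, mouse 11243, was close to the lowest. The highest control was 4.6 times the lowest. The log2 fold change of 0.37 (SE 0.47) had a 95% interval of -0.71 to 1.44, with an adjusted p of 0.716 by edgeR's quasi-likelihood test with Benjamini-Hochberg adjustment. It was 0.09 without control 10684, 0.72 without control 11563 and 0.05 without mice 11601 and 11708.

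*Ddit3* encodes CHOP, the factor that links prolonged stress to cell death. Its normalized values were 11.5, 11.8, 11.8 and 13.9 in controls and 14.0, 14.0, 16.5 and 19.3 in Ox1RΔSERT mice. Every Ox1RΔSERT mouse was above every control, although control 11563 and the Ox1RΔSERT mice 11243 and 11601 nearly touched. Of all genes tested, 390 (2.69%) were higher in Ox1RΔSERT mice without overlap. The means were 12.2 ± 1.08 and 16.0 ± 2.54 (SD, n = 4 each), and the log2 fold change was 0.38 (SE 0.13) with a 95% interval of 0.08 to 0.68. The exact permutation test was at the smallest p that 4 mice against 4 can give, 0.0286 (two-sided, 70 assignments). The unadjusted p of edgeR's quasi-likelihood test was 0.0178 and the adjusted p 0.316, while DESeq2 gave an adjusted p of 0.169. The log2 fold change ranged from 0.28 (without mouse 11708) to 0.44 (without mouse 11601) when single mice were left out, and was 0.32 without both of these mice. *Ddit3* (chromosome 10, 127290774 to 127296288, GRCm38) shares 68 exon bases with *Mars*, the methionyl-tRNA synthetase gene on the opposite strand, which reached 1927 estimated counts in a mouse, compared with 371 to 940 for *Ddit3*. The libraries were stranded, but the sources used here do not state whether counting used the strand. A second annotated entry named *Ddit3*, on the same strand, shares 105 exon bases and has no row among the counts.

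*Asns*, which encodes asparagine synthetase and is a direct ATF4 target, differed in the opposite direction. Its normalized values were 40.2, 41.8, 44.6 and 39.6 in controls and 36.6, 37.2, 38.2 and 30.6 in Ox1RΔSERT mice. Every Ox1RΔSERT mouse was below every control, as in 407 of all genes tested (2.81%). The means were 41.5 ± 2.22 and 35.7 ± 3.46 (SD, n = 4 each), and the log2 fold change was -0.22 (SE 0.09) with a 95% interval of -0.43 to -0.01. The exact permutation p was again the smallest possible, 0.0286 (two-sided). edgeR's quasi-likelihood test gave an unadjusted p of 0.0397 and an adjusted p of 0.322, and DESeq2 an adjusted p of 0.315. This direction depends on the scale: with library sizes alone the log2 fold change was -0.01, and on the TPM scale it was 0.13 with a pseudocount of 1 and 0.14 with 0.1, where the medians of all genes were 0.22, 0.23 and 0.32. Relative to those medians *Asns* was at -0.22, -0.10 and -0.18.

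*Trib3*, a pseudokinase that restrains ATF4 and insulin signaling, had values of 4.66, 4.85, 5.87 and 5.17 in controls and of 5.15, 3.20, 6.58 and 4.59 in Ox1RΔSERT mice. The groups overlapped, with both the lowest and the highest mouse in the Ox1RΔSERT group. Its log2 fold change of -0.08 (SE 0.22) changed sign to 0.08 without mouse 11601, to 0.12 with library sizes alone and to 0.16 on the TPM scale (pseudocount of 1). On the last 2 scales the medians of all genes were 0.22 and 0.23, and relative to them *Trib3* was at -0.09 and -0.07.

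*Chac1* encodes an enzyme that degrades glutathione and is a sensitive ATF4 target. It stood at 5.94, 2.19, 2.78 and 1.51 in controls, and at 2.64, 3.47, 1.48 and 2.63 in Ox1RΔSERT mice. Control 10684, the lowest mouse for *Atf4*, *Atf3* and *Atf5*, was the highest for *Chac1*, and control 11563, the highest mouse for those 3 genes, was the lowest control for *Chac1*. The difference was -0.28 on the log2 scale (SE 0.43), and it turned to 0.24 without control 10684 and to 0.08 on the TPM scale (pseudocount of 1). There the median of all genes was 0.23, and relative to it *Chac1* was at -0.15.

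The enzymes of serine synthesis included the widest difference. *Psat1*, the phosphoserine aminotransferase, had normalized values of 2.69, 3.87, 2.85 and 6.01 in controls and of 3.65, 12.4, 3.03 and 10.7 in Ox1RΔSERT mice. Mice 11601 and 11708 were above all other mice, and the other 2 Ox1RΔSERT mice lay among the controls. The log2 fold change of 0.95 (SE 0.49) had a 95% interval of -0.17 to 2.07, with an adjusted p of 0.371 by edgeR's quasi-likelihood test with Benjamini-Hochberg adjustment and of 0.287 by DESeq2. Without mice 11601 and 11708 it was -0.20. These are the mice with summed macrophage markers of 1000 and 778, and the part of those cells in the *Psat1* level was not tested.

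*Phgdh*, the first enzyme of the serine pathway, varied less. Its values were 8.76, 12, 7.65 and 10.4 in controls and 10.4, 11.8, 14.1 and 11.7 in Ox1RΔSERT mice. The groups overlapped, and the highest mouse was 11613, not 11601 or 11708. Its log2 fold change was 0.31 (SE 0.16) with an adjusted p of 0.375 by edgeR's quasi-likelihood test with Benjamini-Hochberg adjustment. It was 0.35 without mice 11601 and 11708. The third enzyme of the pathway, *Psph*, which is not one of the 10, had a log2 fold change of -0.30 (SE 0.16). The 3 enzymes of serine synthesis thus had no common direction.

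*Gdf15*, the secreted stress hormone, was the least abundant member. Its values were 0.758, 0.602, 1.67 and 2.63 in controls and 1.31, 1.99, 1.44 and 1.11 in Ox1RΔSERT mice, all 4 of which lay within the control range. The counts behind these values were 19 to 125 per mouse. At 0.04 (SE 0.45), its log2 fold change had a 95% interval of -0.99 to 1.07, so that a change by a factor of 2 (1 on the log2 scale) in the upward direction lay inside the interval. *Fgf21*, the other secreted factor of mitochondrial stress, was also low, with 0.729 to 1.75 in controls and 0.552 to 1.25 in Ox1RΔSERT mice and a log2 fold change of -0.42 (SE 0.34).

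**Figure D3:**
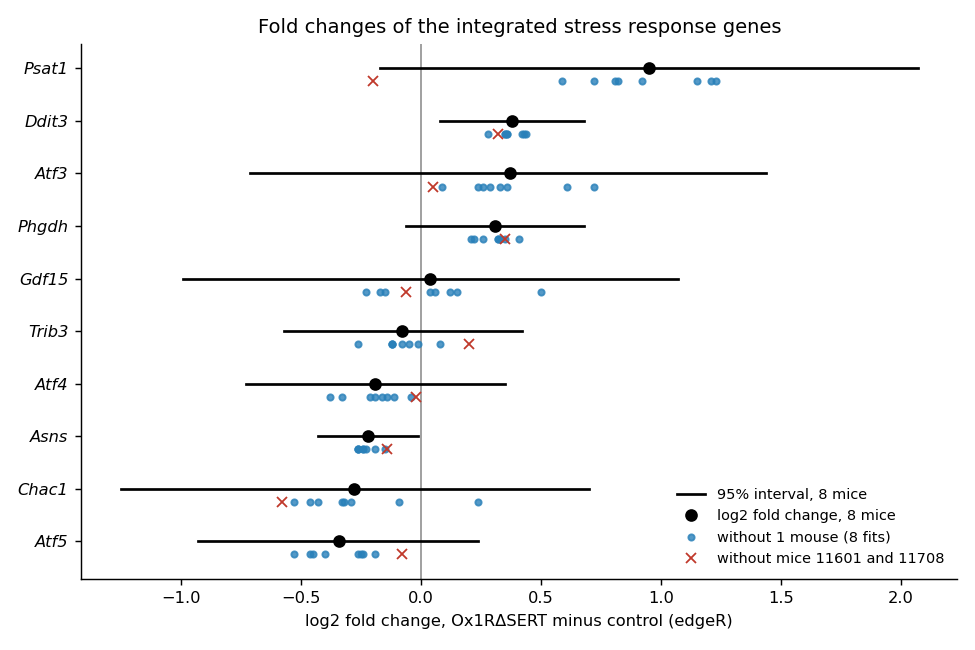
Log2 fold changes of the 10 stress response genes (Ox1RΔSERT minus control, edgeR) on the horizontal axis, with 95% intervals from all 8 mice in black. Blue points are fits without 1 mouse and red crosses are fits without mice 11601 and 11708. The intervals of *Ddit3* and *Asns* do not include 0, and the cross of *Psat1* lies at -0.20.

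Over the 8 mice, *Psat1* (SD of 0.85 on the log2 scale), *Atf3* (0.83) and *Gdf15* (0.65) varied most and *Asns* (0.16) least. In the control group alone, *Atf3* and *Gdf15* differed by factors of 4.6 and 4.36 between the highest and the lowest mouse. The genes whose centred pattern over the 8 mice was closest to *Psat1*, by root mean square difference on the log2 scale, were *Hmga1* (0.16), *Trim59* (0.20) and *Olfml3* (0.21). The genes closest to *Atf3* were *Gsdme* (0.27), *Gm11816* (0.30) and *Gm15501* (0.33), all of which were at or below 0.631 in every mouse. Closest to *Gdf15* were *Adnp* (0.30), *Atp8b3* (0.31) and *Gm36989* (0.33).

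Upstream of ATF4, the list of eIF2 kinases, phosphatases and exchange factor subunits held 18 genes, all tested. edgeR and DESeq2 called 0 of them. At an unadjusted edgeR p under 0.05, 0 were higher (against 10.2% of all genes) and 1 lower (5.56%, against 4.96%), *Eif2b3*, a subunit of the exchange factor. The count of lower genes was 0 without 11243, 11601, 11708, 11253, 11560 or 11563, where 2.02% to 8.50% of all genes were lower. It was 3 without 10684 (16.7%, against 6.54% of all genes). Without 11243, 1 gene was higher (5.56%, against 13.9%). The median log2 fold change was -0.10, with 15 genes below 0, and it was -0.03 without mice 11601 and 11708 and 0.23 on the TPM scale, the same as the median of all genes there. *Eif2ak4*, which encodes GCN2, the kinase that senses uncharged tRNA, was higher without overlap, as were 2.69% of all genes. Its values were 8.16, 8.18, 8.06 and 7.99 in controls and 8.28, 8.90, 9.65 and 13.3 in Ox1RΔSERT mice. The 4 controls were nearly identical, and the difference came mainly from mouse 11708. Its log2 fold change was 0.31 (SE 0.16), with an adjusted p of 0.365 by edgeR's quasi-likelihood test with Benjamini-Hochberg adjustment and 0.15 as the log2 fold change without mice 11601 and 11708. The kinase of the ER, *Eif2ak3* (PERK), had means of 17.6 ± 1.78 and 17.6 ± 2.20 (SD, n = 4 each). The heme-regulated kinase *Eif2ak1* (HRI), which also relays mitochondrial stress, had means of 37.3 ± 3.10 and 33.0 ± 2.05 (SD, n = 4 each) with a log2 fold change of -0.18 (SE 0.09). The most abundant genes of the list, *Ppp1r15b*, *Ppp1ca* and *Eif2s2*, had log2 fold changes of -0.13, -0.02 and -0.06.

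Downstream, 29 of 30 other ATF4 targets were tested, *Slc7a3* being too low. edgeR and DESeq2 called 0, and at an unadjusted edgeR p under 0.05, 3 were higher (10.3%, against 10.2% of all genes) and 1 lower (3.45%, against 4.96%). The median log2 fold change was -0.01. The most abundant, *Cebpb*, *Eif4ebp1* and *Vegfa*, had log2 fold changes of 0.14 (SE 0.36), 0.05 (SE 0.14) and -0.10 (SE 0.22). The 3 higher genes, named after their values were seen, all encode amino acid transporters: *Slc7a5* (large neutral amino acids), *Slc7a11* (cystine, the exchanger shown above) and *Slc7a1* (cationic amino acids). *Slc7a5* stood at 1.41, 0.919, 1.11 and 0.820 in controls and at 1.33, 5.50, 1.30 and 4.11 in Ox1RΔSERT mice, for a log2 fold change of 1.52 (SE 0.50), and those of *Slc7a11* and *Slc7a1* were 1.13 (SE 0.49) and 0.87 (SE 0.34). For all 3, mice 11601 and 11708 were the highest of the 8, as for *Psat1*. Without these mice the log2 fold changes were 0.31, 0.20 and 0.21. Without single mice, the count of 3 higher genes was 1 (without 11708), 2 (without 11601, 10684, 11253 or 11560) or 4 (without 11243 or 11613). In these fits 4.84% to 13.9% of all genes were higher. The count of lower genes was 2 (without 10684 or 11708) or 3 (without 11613), where 2.13% to 6.54% of all genes were lower. The lower gene was *Got1*, the cytosolic aspartate aminotransferase. It had 41.0, 65.2, 65.3 and 69.9 in controls and 46.3, 34.8, 34.1 and 45.1 in Ox1RΔSERT mice. Control 10684 lay among the Ox1RΔSERT mice, and the other 3 controls were above them all. Its log2 fold change was -0.59 (SE 0.18), with an adjusted p of 0.316 by edgeR's quasi-likelihood test with Benjamini-Hochberg adjustment, and -0.58 without mice 11601 and 11708.

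The list of serine, glycine and one-carbon enzymes, with those of proline and glutamine synthesis, held 19 genes. edgeR and DESeq2 called 0. At an unadjusted edgeR p under 0.05, 4 were higher (21.1%, against 10.2% of all genes) and 1 lower (5.26%, against 4.96%). The lower gene was *Dld*, a subunit of the glycine cleavage and pyruvate dehydrogenase complexes. The 4 higher genes, again named after their values were seen, were *Gldc* (glycine cleavage), *Aldh1l2* (mitochondrial folate), *Aldh18a1* and *Pycr1* (proline synthesis), with log2 fold changes of 1.31, 1.65, 1.19 and 1.68. *Aldh18a1*, for example, had 2.25, 2.38, 1.72 and 2.52 in controls and 2.36, 9.17, 2.42 and 6.23 in Ox1RΔSERT mice. Mice 11601 and 11708 were the highest mice for all 4 genes. Without them the log2 fold changes were 0.56, 0.16, 0.12 and 0.47, and 0 of the 19 genes had an unadjusted p under 0.05 in either direction, compared with 246 (1.66%) higher and 178 (1.20%) lower among all 14856 genes tested then. The count of 4 was 1 without mouse 11601 or 11708 or control 10684, and 2 without control 11560 or 11563, where 4.84% to 9.15% of all genes were higher. It was 5 without mouse 11243 or 11613, where 13.9% and 13.1% were. The count of lower genes was 0 without 11601, 11708, 11560 or 11563, where 2.02% to 2.72% of all genes were lower. It was 2 without 11253 (10.5%, against 4.22%). *Mthfd2*, the mitochondrial folate enzyme that is a classical mark of mitochondrial stress, had 2.28, 2.31, 3.39 and 4.75 in controls and 2.29, 5.82, 3.10 and 4.75 in Ox1RΔSERT mice, overlapping widely. Its log2 fold change was 0.32 (SE 0.35). The abundant *Glul* and *Gcsh* had log2 fold changes of -0.08 and -0.17, and *Dld* of -0.35 (SE 0.13).

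**Figure D4:**
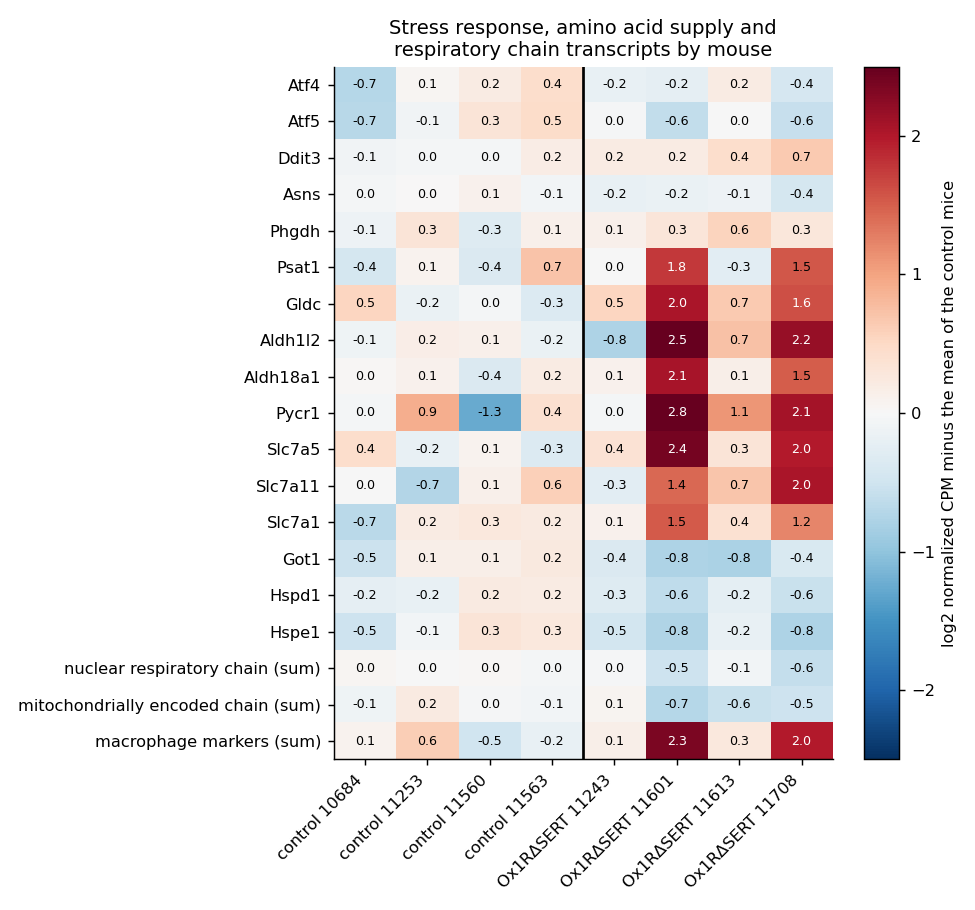
Log2 normalized values of stress response, amino acid supply and mitochondrial chaperone transcripts, and of the summed respiratory chain and macrophage marker transcripts, each relative to the mean of the control mice (rows), in every mouse (columns). Red is above and blue below the control mean. *Psat1*, *Gldc*, *Aldh1l2*, *Aldh18a1*, *Pycr1*, *Slc7a5*, *Slc7a11*, *Slc7a1* and the macrophage markers are highest in the Ox1RΔSERT mice 11601 and 11708, in which macrophage markers are at 2.35 and 1.98, whereas *Phgdh* is highest (0.56) and *Got1* lowest (-0.79) in mouse 11613.

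The cytosolic tRNA synthetases, which as a group are induced by ATF4, showed hardly any difference. edgeR and DESeq2 called 0 of the 20, 0 had an unadjusted edgeR p under 0.05 in either direction, and 0 were without overlap. Of all genes, 10.2% were higher and 4.96% lower by that p, and 2.69% and 2.81% were so without overlap. Without control 10684, 1 synthetase was higher (5.0%, against 9.15% of all genes) and 3 lower (15.0%, against 6.54%). Without mouse 11243, 1 was higher (5.0%, against 13.9%). The log2 fold changes ran from -0.22 to 0.24 with a median of 0.01. *Gars*, *Nars* and *Sars*, the most abundant, had log2 fold changes of -0.16 (SE 0.11), -0.17 (SE 0.15) and -0.22 (SE 0.19). Over all tested genes with a promoter in the table, the 306 with the TGATGNAA motif had a median log2 fold change of 0.01 and the 10432 without it of 0.0.

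The unfolded protein response of the ER was described by 22 genes. edgeR and DESeq2 called 0 of them, and at an unadjusted edgeR p under 0.05, 6 were higher (27.3%, against 10.2% of all genes) and 1 (*Atf6*) lower (4.55%, against 4.96%). The median was 0.17, with 19 genes above 0. *Pdia4*, a disulfide isomerase and 1 of the 6, named after its values were seen, had 26.2, 19.7, 20.6 and 20.3 in controls and 21.5, 61.8, 24.3 and 54.0 in Ox1RΔSERT mice. Only mice 11601 and 11708 were above the controls. Without these 2 mice the median of the list was -0.02 and 0 of the 22 had an unadjusted edgeR p under 0.05, in a fit in which 1.66% of all genes were higher and 1.20% lower. The count of higher genes also fell to 0 without control 11253 or 11560, or without mouse 11601 or 11708 alone, where 4.84% to 9.50% of all genes were higher. It was 2 without control 10684 (9.09%, against 9.15%) and 1 without control 11563 (4.55%, against 6.37%). Without mouse 11243 it was 7 (31.8%, against 13.9%) and without mouse 11613 it was 6 (27.3%, against 13.1%). The most abundant members, *Hspa5* (BiP), *Hsp90b1* and *Calr*, had log2 fold changes of 0.17, 0.21 and 0.12.

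Transcripts of the mitochondrial unfolded protein response were on the lower side in Ox1RΔSERT mice, though none was called. The list held 15 mitochondrial chaperones and proteases. All 15 log2 fold changes were below 0, with a median of -0.17, which turned to 0.03 with library sizes alone and to 0.16 on the TPM scale, where the medians of all genes were 0.22 and 0.23. On TPM rescaled without mitochondrially encoded genes the median of the list was -0.01, against 0.16 for all genes. edgeR and DESeq2 called 0. At an unadjusted edgeR p under 0.05, 0 were higher and 4 lower (26.7%, against 4.96% of all genes), namely *Hspd1* (HSP60), *Hspe1* (HSP10), *Hspa9* (mortalin) and *Dnaja3*. This count was 0 without control 11563, where 2.72% of all genes were lower. It was 1 (6.67%) without mouse 11601 or 11708 or control 11560, where the share was 2.02% to 2.51%. Without mouse 11613 it was 7 (46.7%), where the share was 5.97%. *Hspd1* had normalized values of 914, 939, 1260 and 1230 in controls and of 862, 695, 906 and 733 in Ox1RΔSERT mice. The groups did not overlap, and mice 11601 and 11708 were the lowest. Its log2 fold change was -0.44 (SE 0.15), with an exact permutation p of 0.0286 and an adjusted p of 0.316 by edgeR's quasi-likelihood test with Benjamini-Hochberg adjustment. *Dnaja3* was the other gene without overlap, with 285, 251, 258 and 258 in controls and 239, 192, 236 and 183 in Ox1RΔSERT mice. Of all genes tested, 2.81% were lower without overlap. *Hspe1* and *Hspa9* had log2 fold changes of -0.56 (SE 0.20) and -0.35 (SE 0.13). Without mice 11601 and 11708 the median of the list was -0.04, with 7 genes above and 8 below 0, and the log2 fold changes of *Hspd1*, *Hspe1*, *Hspa9* and *Dnaja3* were -0.29, -0.35, -0.20 and -0.14.

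On the normalized scale, the nuclear respiratory chain transcripts were lowest in the same 2 mice. The summed normalized value of 76 nuclear respiratory chain genes was 45200, 43300, 44500 and 42400 in controls 10684, 11253, 11560 and 11563, and 43100, 30800, 41900 and 29100 in Ox1RΔSERT mice 11243, 11601, 11613 and 11708. Mice 11601 and 11708 were far below the controls, and the other 2 Ox1RΔSERT mice were within or just below their range. This order did not hold for summed TPM, which was 49000 to 54600 in controls and 50700, 53300, 59900 and 46300 in the Ox1RΔSERT mice, with mouse 11601 inside the control range, 11613 above it and 11708 below it. Mitochondrially encoded chain genes took 613000 to 650000 TPM in controls and 636000, 551000, 547000 and 585000 in the same Ox1RΔSERT mice. TPM has a fixed total in every mouse, so the nuclear sums on this scale also depend on the mitochondrial part. Of the 76 genes, 75 had a log2 fold change below 0, the exception being *Atp5g1* (0.86). The median was -0.28, or 0.01 on the TPM scale against 0.23 for all genes. On TPM rescaled without mitochondrially encoded genes the median was -0.17, against 0.16 for all genes. At an unadjusted edgeR p under 0.05, 0 genes were higher and 21 lower (27.6%, against 4.96% of all genes), while edgeR and DESeq2 called 0. The count of 21 was 2 without mouse 11601 or 11708, where 2.51% and 2.13% of all genes were lower, and between 3 and 8 without a control, where the shares were 2.02% to 6.54%. It was 46 without mouse 11243 and 35 without mouse 11613, where 8.50% and 5.97% of all genes were lower. Groups were without overlap in 12 genes, all lower, against 2.81% of all genes: *Ndufa3*, *Ndufa5*, *Ndufa12*, *Ndufab1*, *Ndufb2*, *Ndufb3*, *Ndufs3*, *Sdhb*, *Uqcrc2*, *Uqcrh*, *Cox8a* and *Atp5c1*. Their log2 fold changes lay between -0.43 (*Ndufb2*) and -0.31 (*Atp5c1*). The abundant *Atp5b* was at -0.28 (SE 0.17) and *Cox8b* at -0.33 (SE 0.21). Without mice 11601 and 11708 the median of the 76 genes was -0.05 and 0 had an unadjusted edgeR p under 0.05, in a fit in which 1.20% of all genes were lower by that measure.

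Mitochondrially encoded chain transcripts were below all controls in 3 Ox1RΔSERT mice, and mouse 11613 was lower than mouse 11708. Their sum over 13 genes was 405000 to 508000 in controls and 461000, 267000, 298000 and 305000 in Ox1RΔSERT mice, so that mouse 11613 was low as well and mouse 11243 was not. All 13 log2 fold changes were below 0 with a median of -0.44, which was -0.23 without mice 11601 and 11708. edgeR called 0 of them. At an unadjusted edgeR p under 0.05, 0 were higher (against 10.2% of all genes) and 2 lower (15.4%, against 4.96%). Without mouse 11243, 13 were lower, where 8.50% of all genes were. Without any other mouse, 1 was lower (7.69%), where 2.02% to 6.54% of all genes were. DESeq2 called 1, *mt-Nd5*, at an adjusted p of 0.0371, and 1.74% of all genes. *mt-Nd5* was lower without overlap, as were 2.81% of all genes, with 17700, 20500, 16700 and 16400 in controls and 15200, 9110, 9260 and 11700 in Ox1RΔSERT mice. The most abundant, *mt-Co2*, *mt-Atp6* and *mt-Atp8*, had log2 fold changes of -0.41, -0.42 and -0.45. In mice 11601 and 11708, *Atf4* stood at 149 and 130 and *Gdf15* at 1.99 and 1.11, inside the control ranges of 106 to 236 and of 0.602 to 2.63. *Ddit3* was at 14.0 and 19.3 in these mice, above the controls, and *Asns* at 37.2 and 30.6, below them. Mouse 11613, also low in mitochondrially encoded transcripts, had *Atf4* at 200 and *Gdf15* at 1.44, inside the control ranges. Its *Ddit3* was at 16.5, above the controls, and its *Asns* at 38.2, below them.

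**Figure D5:**
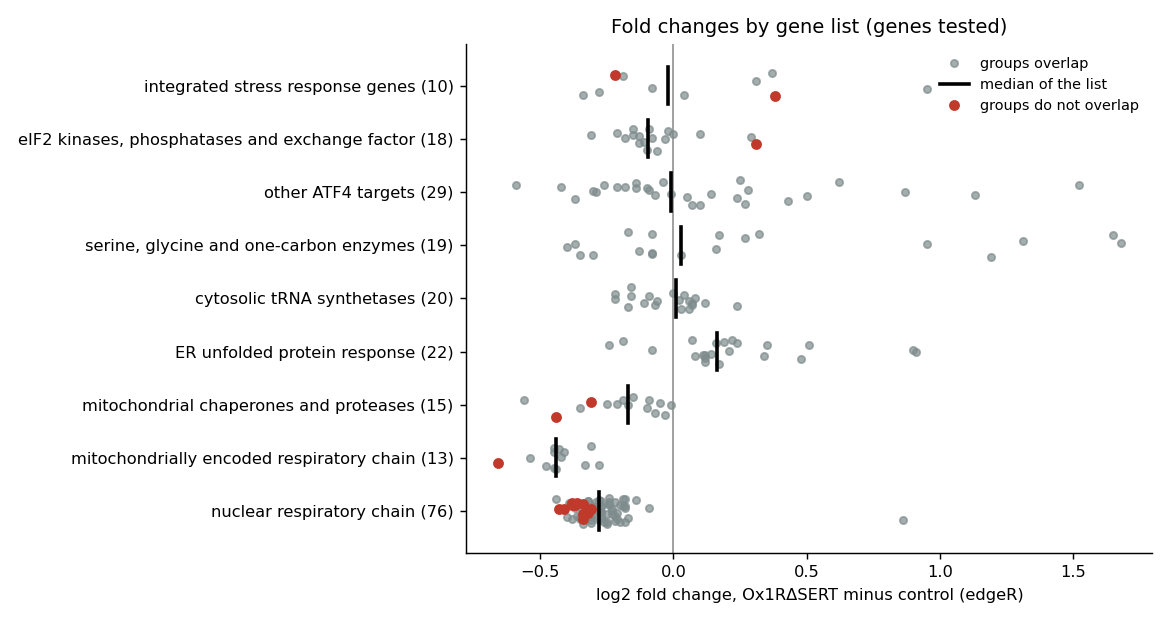
Log2 fold changes (Ox1RΔSERT minus control, edgeR, horizontal axis) of the genes tested in each list, with the number of genes in brackets. Each point is a gene, red where the 4 control and the 4 Ox1RΔSERT mice do not overlap, and black bars are medians. The stress response genes are centred on -0.02, tRNA synthetases on 0.01, mitochondrial chaperones and proteases on -0.17 and nuclear respiratory chain genes on -0.28. On the TPM scale the chaperones and proteases are at 0.16 and the nuclear chain genes at 0.01, where the median of all genes is 0.23. Relative to that median they are at -0.07 and -0.22.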

How the data were processed

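BAT libraries of 8 male mice were prepared by the authors with a stranded kit after poly-A selection. Quantification by the authors used Salmon 0.14.1, within nf-core/rnaseq, and GRCm38, and the submitters' processing notes also name STAR and DESeq2 1.26.0. The release of the annotation and any filters on reads are not given in the sources used here. Estimated counts, deposited without normalization for every gene in every mouse, entered the tests. TPM values, normalized by the authors for transcript length, gave levels between genes. Symbols and positions came from GENCODE M21 (GRCm38), which named 44118 of 44674 identifiers (98.8%). Promoter sequences came from RefSeq (GRCm38.p6).

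Estimated counts were rounded. The groups were compared over 8 mice without covariates in edgeR 4.0.16 (filterByExpr, TMM, glmQLFit, glmQLFTest; R 4.3.3) with p-values adjusted by Benjamini-Hochberg (threshold 0.05). SEs were computed from the F statistic. Exact permutation tests were two-sided over 70 assignments. DESeq2 1.42.0 and limma 3.58.1 were alternatives, together with RLE, upper-quartile and library size scaling, other filters, TPM with pseudocounts of 1 and 0.1, and leaving out each mouse. Scripts were tested on simulated data. A floor of 3 counts corresponded to a normalized value of 0.0592 to 0.0951, for counting error only. The groups were littermates, but which mice shared a litter or a batch is not given in the sources used here, and the number of 4 mice per group limits the precision.

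The members and lists were chosen with earlier results of these data known. The text names the members, the 3 genes of each list with the highest mean TPM, genes of a list whose groups do not overlap, the nearest patterns of the 3 most variable members, *Hcrtr1* and marker sums. Genes chosen after their values were seen are said to be so, and *Eif2ak1*, *Eif2ak3*, *Fgf21*, *Psph* and *Mthfd2* were added for their known roles. Markers of endothelial cells, lymphocytes and neutrophils were also summed (368 to 590, 0.768 to 1.58 and 7.08 to 52.2).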

Additional observations from a re-analysis of the deposited data

Results flagged for a closer look

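In 5 of 52 groups of 4 mice, 1 mouse lay farther from the others than Dixon's 95% critical value allows. Chance alone gives this in about 1 of 20 groups. *Atf3* was low in Ox1RΔSERT mouse 11243 (7.25), the other 3 Ox1RΔSERT mice being at 21.6 to 23.4. *Ddit3* was high in control 11563 (13.9), the other controls being at 11.5 to 11.8, and this mouse is the one that nearly reaches the Ox1RΔSERT range. The summed skeletal muscle markers were high in control 11253 (1730, others 2.59 to 8.58) and in Ox1RΔSERT mouse 11708 (2360, others 10.6 to 191). The summed hepatocyte markers were high in Ox1RΔSERT mouse 11708 (1150, others 41.6 to 102). Muscle and liver markers being high in mouse 11708, the log2 fold changes of *Ddit3* and *Asns* without this mouse were 0.28 and -0.15.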

How the results depend on the processing

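The 10 members were called under none of the 20 alternatives. *Atf3*, *Ddit3* and *Phgdh* kept their direction under all of them. Sign changes were frequent where the median of all genes shifted, by 0.22 with library sizes alone, 0.23 and 0.32 on TPM with pseudocounts of 1 and 0.1, and 0.16 on TPM rescaled without mitochondrially encoded genes. In this order *Atf4* gave 0.03, 0.18, 0.19 and 0.01 and *Trib3* 0.12, 0.16, 0.21 and 0.04. On TPM, *Atf5* gave 0.01 and 0.01, *Asns* 0.13 and 0.14 and *Chac1* 0.08 and 0.15. With voom quality weights *Chac1* was at 0.11 and *Gdf15* at -0.16. Leaving out single mice gave -0.26 to 0.08 for *Trib3* (0.08 without 11601), -0.53 to 0.24 for *Chac1* (0.24 without 10684) and -0.23 to 0.50 for *Gdf15* (-0.15 without 11601, -0.17 without 10684, -0.23 without 11253). Leaving out mice 11601 and 11708 together, like the rescaled TPM chosen after seeing the data, gave -0.20 for *Psat1*, 0.20 for *Trib3* and -0.06 for *Gdf15*. It moved the medians, relative to all genes, to -0.02 for eIF2 factors, -0.03 for mitochondrial chaperones and -0.04 for nuclear chain genes. The eIF2 median was 0.0 on TPM with a pseudocount of 1. The serine and one-carbon median was 0.13 with voom and between -0.01 and 0.15 without single mice. DESeq2 called 266 genes over the whole table (234 higher, 32 lower), compared with 0 by edgeR. The longer motif was in 0.0% of the members. For the other values the cause of a change was not tested. The mitochondrially encoded list has no value on the rescaled TPM. No paired analysis was possible because the labels number the mice and do not pair them across groups. With 4 mice per group, intervals of single genes reached 1 or more on the log2 scale for *Atf3*, *Psat1*, *Chac1* and *Gdf15*.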
